A study of Mus musculus with 18 samples.

Results

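The lysosome breaks down sugars, sulfated glycans and lipids with a set of soluble acid hydrolases, and 35 genes for these enzymes, their activator proteins and the enzymes that tag them for delivery were followed in activated macrophages. The genes were chosen by name and function, with the cathepsins left out, and all 35 were among the 11243 genes of the deposited count table. Each was put in a single group, giving 14 glycan genes, 6 sulfate genes, 9 lipid genes, 3 genes that act on phosphate esters or DNA, and 3 tagging genes. These groups do not separate substrates fully, since Gla and Hexa (glycan) and Arsa (sulfate) also act on sphingolipids. With LPS, 17 of the 35 genes fell and 4 rose in total mRNA, against 34.3% and 32.2% of all genes, and Sgsh, Hyal1 and Dnase2a fell most. At a stricter adjusted p of at most 0.05, the share that fell no longer exceeded that of all genes. Torin1, added ahead of LPS, was followed by higher levels of 24 of the 35 genes in total mRNA relative to LPS alone, against 27.3% of all genes, with Acp5, Dnase2a, Sgsh, Naglu and Idua at the top. Counting both directions, 26 members changed in that comparison, and 15 without experiment 3.

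Most lysosomal hydrolases are made in the endoplasmic reticulum as glycoproteins and receive mannose-6-phosphate in the Golgi, which receptors recognise and carry to endosomes. Inside the lysosome they work in sequence, so that heparan sulfate, for example, is degraded from 1 end by sulfatases, glycosidases and an acetyltransferase that each remove or modify a single group. Inherited loss of single members causes lysosomal storage diseases. Macrophages carry many lysosomes and use these enzymes on engulfed material.

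The cells were RAW264.7, a mouse macrophage line. Control cells received the vehicle DMSO, LPS cells 500 ng/mL of lipopolysaccharide (LPS) during 6 h, and LPS with torin1 cells the same LPS following a 15 min pretreatment with torin1 at 100 nM, an inhibitor of the mTOR kinase. The 3 treatments were repeated in 3 experiments, and total as well as heavy-polysome RNA of each of the 9 lysates was sequenced, giving 18 libraries. All results come from this single cell line at 6 h, and torin1 without LPS is not analysed here.

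Library depth ranged from 27800983 to 47725557 counted reads, and the 35 genes took between 0.273% and 0.602% of them. The lowest count of any of the 35 in a library was 26, for Acp5, and the highest was 62634, for Psap. All 8 listed macrophage markers were in the table, with summed levels of 11976 to 12766 CPM (read counts scaled to library size) in control, 13012 to 14516 with LPS and 10727 to 11651 with LPS and torin1 in total mRNA, and none of the listed markers of T cells, B cells, fibroblasts or epithelium had a row. Lyz2 made up most of the macrophage sum (7589 ± 534 CPM in control total mRNA, SD, n = 3). Single markers moved both ways with LPS, such as Csf1r from a mean of 2447 to 1286 CPM and Itgam from 161.5 to 712.9 CPM. Of the LPS-response genes, Il1b went from a mean of 2.03 to 1926 CPM and Tnf from 257.4 to 2389 CPM in total mRNA, whereas Il6 and Nos2 had no row. The table keeps only genes without a 0 in any library, so a missing row does not show that a cell type was absent. CPM values were scaled with the trimmed mean of M-values (TMM), differences are log2 fold changes of edgeR's quasi-likelihood test with their standard errors, and a gene is said to rise or fall where its Benjamini-Hochberg adjusted p over all genes was at most 0.25, the false discovery rate of the study's methods. In these bulk samples, fewer cells expressing a gene and less of its RNA per cell cannot be told apart.

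Promoter sequence of the members is given first. The hexamer CACGTG is the core of the sites bound by TFEB and related factors, known regulators of lysosomal genes. RefSeq promoters of GRCm38.p6, from 250 bases before to 50 bases after each start site, were at hand for 31 of the 35 members. CACGTG, which reads the same on both strands, was found in 9 of these 31 members (29%) and in 1032 of 8568 genes of the table with a promoter (12%). The longer palindrome TCACGTGA, which contains it, was found in 3 members (9.68%) and in 2.23% of the genes. With a G before it and a C after it, this palindrome was found in 0 members and in 74 of the genes (0.864%). Windows of 30 bases from members with a match are printed 5′ to 3′ on the strand of the gene, with the match in capitals, to show the letters around it. Members with a match include Sgsh, Naglu, Gla and Arsa, which are among the 8 largest rises with torin1 in total mRNA, and the other 4 of these 8, Acp5, Dnase2a, Idua and Manba, had no match.
Sgsh (chr11:119355522-119355551, minus strand): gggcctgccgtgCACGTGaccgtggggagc
Naglu (chr11:101070009-101070038, plus strand): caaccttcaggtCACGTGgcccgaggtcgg
Arsa (chr15:89477423-89477452, minus strand): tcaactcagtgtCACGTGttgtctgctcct
Gla (chrX:134601215-134601244, minus strand): taagcgattgaTCACGTGAgcatctacgtc
Gla (chrX:134601182-134601211, minus strand): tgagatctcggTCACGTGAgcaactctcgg
Gaa (chr11:119267811-119267840, plus strand): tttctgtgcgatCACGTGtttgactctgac
Sumf1 (chr6:108185577-108185606, minus strand): agcaccacaggTCACGTGAtctccatgggt
Glb1 (chr9:114401018-114401047, plus strand): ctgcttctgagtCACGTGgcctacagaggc

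The remaining members with CACGTG were the tagging genes Gnptg and Nagpa. By group, CACGTG was found in 4 of 12 glycan genes, 3 of 5 sulfate genes, 0 of 8 lipid genes, 0 of the 3 phosphate and DNA genes and 2 of 3 tagging genes. Of the 9 members with the hexamer, 5 rose and 1 fell in total mRNA with LPS and torin1 relative to LPS, with a median log2 fold change of 0.69. Of the 22 members without it, 16 rose and 1 fell, with a median of 0.36, against 27.3% of all genes higher and 26.4% lower. With LPS relative to control in total mRNA, 1 rose and 2 fell among the 9 members with the hexamer, with a median of −0.03. Among the 22 without it, 2 rose and 13 fell, with a median of −0.28, against 32.2% of all genes higher and 34.3% lower. A match describes the letters of this window and does not show that a factor binds there.

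The members covered a wide range of abundance. Levels between genes were compared in total mRNA as CPM divided by the exon length in kilobases (RPKM). Exon lengths were those of GENCODE M21, and the annotation release behind the counts is not given in the sources used here, so these levels are approximate. Prosaposin (Psap), the precursor of the saposin activators of sphingolipid breakdown, was highest in control cells at 255 ± 5.24 RPKM (SD, n = 3). It was followed by the hexosaminidase subunit gene Hexa at 113.5 ± 13.6 RPKM and the acid lipase gene Lipa at 100.7 ± 7.43 RPKM, whose ranges overlapped, and by the β-glucuronidase gene Gusb at 80.6 ± 1.84 RPKM. The 3 lowest were the hyaluronidase gene Hyal1 at 1.50 ± 0.612 RPKM, the galactosylceramidase gene Galc at 1.15 ± 0.0670 RPKM and Acp5, which encodes tartrate-resistant acid phosphatase, at 0.627 ± 0.205 RPKM. The place of Galc rests on an exon length of 14879 bases, since its 17.1 ± 0.997 CPM exceeded the 10.3 ± 0.103 CPM of Arsa, the 11.1 ± 0.995 CPM of Idua and the 14.5 ± 1.72 CPM of Pla2g15 (SD, n = 3). Per length, Hyal1 overlapped with Galc, and Acp5 lay below Galc in every control library. Acp5 moved from the last place in control to place 28 with LPS and torin1, and Dnase2a from place 11 to place 18 with LPS.

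**Figure D1:**
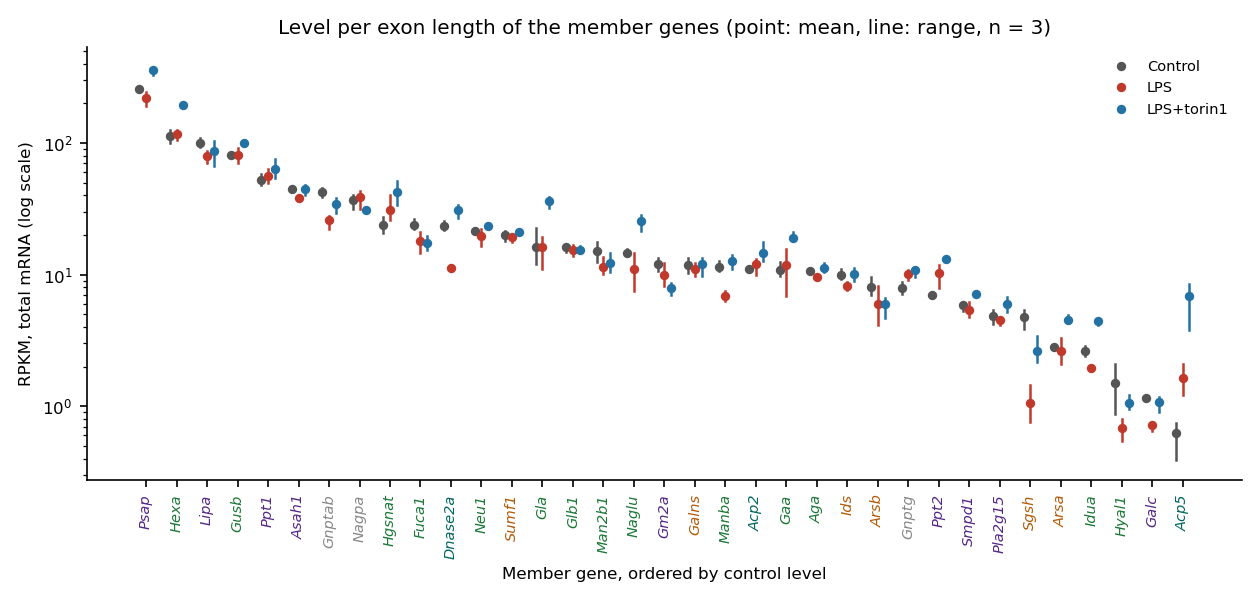
Level of each of the 35 members in total mRNA, in RPKM on a log scale, ordered by the level in control cells, with the mean as a point and the range of 3 libraries as a line for control, LPS, and LPS with torin1. Gene names are coloured by group. Psap is highest at 255 RPKM in control and Acp5 lowest at 0.627 RPKM.

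Summed over the 35 members, total mRNA held 3782, 3944 and 3910 CPM in the control libraries of experiments 1 to 3, 3123, 3492 and 3496 CPM with LPS, and 4408, 4374 and 4847 CPM with LPS and torin1. Under this scaling the 3 treatments did not overlap, with LPS lowest and LPS with torin1 highest. As shares of all counted reads the sums were 0.447%, 0.454% and 0.453% in control, 0.273%, 0.317% and 0.324% with LPS, and 0.429%, 0.405% and 0.456% with LPS and torin1, so that LPS was still lowest and the other 2 treatments overlapped. In polysome-associated mRNA the sums were 5319, 4526 and 4920 CPM in control, 4117, 4403 and 4443 CPM with LPS, and 5917, 5242 and 6093 CPM with LPS and torin1. The LPS libraries again lay below all others, whereas 1 control library exceeded the lowest library of LPS with torin1, and as shares of all counted reads the 2 ran from 0.534% to 0.602% and from 0.512% to 0.581%, with LPS at 0.362% to 0.406%. Psap alone made up 700.0 ± 14.4 CPM of the total mRNA in control (SD, n = 3), and without it the order of the means was the same, at 3179 ± 96.7, 2763 ± 147 and 3558 ± 216 CPM for control, LPS, and LPS with torin1.

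The first comparison asked how 6 h of LPS changed these mRNAs relative to control. In total mRNA, 17 of the 35 members fell and 4 rose. Over all genes 34.3% fell and 32.2% rose (66.5% either way), so that at this threshold the share of members that fell exceeded the background and the share that rose lay below it. At an adjusted p of at most 0.05, 11 members changed, with Acp5, Ppt2 and Gnptg higher and the others lower. Of all 11243 genes, 2695 were then lower and 2437 higher, and the share of members that fell no longer exceeded the background. The median member changed by −0.14 and the median gene of the table by −0.018 on the log2 scale. With library totals in place of TMM, the median of all genes itself moved to −0.384 and the members split into 30 lower and 1 higher, so that directions here are relative to the rest of the transcriptome. The ranges of control and LPS libraries were separate, with LPS lower, for 13 members, against 28.3% of all genes, and separate with LPS higher for 3 members, against 25.6%. Leaving out experiment 1, 2 or 3 gave 17, 21 and 15 changed members, and 11 were called in the full fit and in all 3 of these.

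The steepest fall was that of Sgsh (chr11:119343425-119355536, minus strand, GRCm38), the sulfamidase that removes sulfate from the glucosamine of heparan sulfate. In total mRNA Sgsh stood at 22.0, 17 and 23.7 CPM in control and at 3.38, 4.30 and 6.40 CPM with LPS. The groups were far apart, and the log2 fold change was −2.15 ± 0.26 (SE, n = 3), with an edgeR adjusted p of 8.99e-05. In polysome-associated mRNA it went from 35.9, 21.5 and 32.3 CPM to 3.71, 6.22 and 7.70 CPM, a log2 fold change of −2.34 ± 0.29 with an edgeR adjusted p of 0.000167. Sgsh shares 955 exonic bases with Card14 on the opposite strand, and how the counting treated strands is not stated in the sources used here. Card14 itself had no row in the table.

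Hyal1 (chr9:107576927-107581710), which encodes a hyaluronidase, was the glycan gene with the largest fall. Its control libraries held 5.72, 7.94 and 3.31 CPM of total mRNA, and its LPS libraries 3.03, 2.65 and 2.04 CPM. The control libraries differed widely among themselves, yet the lowest lay above every LPS library. The log2 fold change was −1.14 ± 0.30 (edgeR adjusted p = 0.0102) in total and −1.28 ± 0.30 (edgeR adjusted p = 0.00768) in polysome-associated mRNA. Hyal1 shares 2079 exonic bases with Hyal3 and Naa80 on the same strand, which makes its counts uncertain. Naa80 had no row, and Hyal3 held 0.486 ± 0.213 CPM in control and 0.607 ± 0.157 CPM with LPS (SD, n = 3).

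Dnase2a, the gene of the acid nuclease that digests DNA in phagolysosomes, fell to nearly the same level in every experiment. It held 120.6, 136.8 and 118.5 CPM in control and 60.2, 60.8 and 61.1 CPM with LPS in total mRNA. The groups were far apart, and the log2 fold change was −1.05 ± 0.11 with an edgeR adjusted p of 3.79e-05. In polysome-associated mRNA it fell from 199, 186 and 178 CPM to 79.1, 93.0 and 87.3 CPM, a log2 fold change of −1.12 ± 0.13. Dnase2a overlaps 1616 exonic bases of Mast1 on the opposite strand, whose level was 1.22 ± 0.362 CPM in control and 0.561 ± 0.0874 CPM with LPS (SD, n = 3).

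Manba, Gnptab and Galc, of distinct roles, fell in both RNA types. The β-mannosidase gene Manba, for the last step of N-glycan breakdown, held 73.7, 80.2 and 87.6 CPM in control and 44.3, 46.0 and 52.8 CPM with LPS in total mRNA, with a log2 fold change of −0.75 ± 0.12 (edgeR adjusted p = 0.000569). Gnptab encodes the catalytic part of the phosphotransferase that starts the mannose-6-phosphate tag, and it went from 229.7, 248 and 268 CPM to 164, 130.1 and 163 CPM, a log2 fold change of −0.70 ± 0.13 (edgeR adjusted p = 0.00171). Galc, the galactosylceramidase gene, went from 18.2, 16.7 and 16.4 CPM to 9.61, 11.2 and 11.1 CPM, a log2 fold change of −0.68 ± 0.14 (edgeR adjusted p = 0.00215). Control and LPS libraries of all 3 genes were separate in total mRNA. Their log2 fold changes on polysomes were −0.58 ± 0.17 for Manba, −0.63 ± 0.20 for Gnptab and −0.69 ± 0.24 for Galc, with edgeR adjusted p of 0.026, 0.031 and 0.045. The call of Galc in polysome-associated mRNA was lost without experiment 1, at an edgeR adjusted p of 0.285.

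Smaller falls in total mRNA, of −0.42 to −0.15 on the log2 scale, were found for Arsb, Idua, Fuca1, Man2b1, Naglu, Lipa, Gm2a, Ids, Asah1, Psap and Aga. They include the sulfatases of dermatan sulfate (Arsb) and of heparan and dermatan sulfate (Ids), and the iduronidase that follows it (Idua). Enzymes of glycoprotein breakdown (Fuca1, Man2b1, Aga) and the acid ceramidase (Asah1) are also among them. Of these 11 calls, 8 were lost when 1 experiment or another was left out, and those of Idua, Fuca1 and Ids were kept.

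The members that rose with LPS were few. Acp5 went from 0.791, 1.50 and 1.52 CPM in control to 2.46, 3.28 and 4.24 CPM with LPS in total mRNA. All LPS libraries were higher, from a low start, and the log2 fold change was 1.38 ± 0.37 with an edgeR adjusted p of 0.011. In polysome-associated mRNA it was 1.14 ± 0.38 with an edgeR adjusted p of 0.0394, and the call was lost without experiment 3, at an edgeR adjusted p of 0.264. Ppt2, a lysosomal thioesterase gene, held 17.7, 18.9 and 18 CPM in control and 20.8, 30.8 and 29.2 CPM with LPS, with a log2 fold change of 0.56 ± 0.14 (edgeR adjusted p = 0.00816). Gnptg, the γ subunit gene of the tagging phosphotransferase, changed by 0.34 ± 0.13 (edgeR adjusted p = 0.0494), and Hgsnat, the acetyltransferase of heparan sulfate breakdown, by 0.38 ± 0.20 (edgeR adjusted p = 0.151), and both of these calls were lost without experiment 3. The subunit genes Gnptab and Gnptg of the same enzyme thus moved in opposite directions under TMM. With library totals, Acp5 was the only member that still rose, with a log2 fold change of 1.02, and Ppt2, Gnptg and Hgsnat stood at 0.20, −0.02 and 0.00. Acp5 is also a marker of osteoclasts, and 4 of 6 listed osteoclast markers were in the table, with summed levels of 31.8 to 50.2 CPM in control, 53.7 to 119.5 CPM with LPS and 124.2 to 219.4 CPM with LPS and torin1 in total mRNA. From control to LPS the means went from 0.322 to 28.1 CPM for Mmp9 and from 35.7 to 53.1 CPM for Dcstamp, which carried most of the change of the sum. Ctsk went from 3.41 to 5.24 CPM and Ocstamp from 3.19 to 3.99 CPM. Calcr and Oscar, the remaining 2, had no row, and the part of these markers in the result was not tested.

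In polysome-associated mRNA, 13 members fell and 3 rose with LPS, against 28.7% and 26.4% of all genes (55.1% either way). The median member changed by −0.16, and the median of all genes was −0.031. At an adjusted p of at most 0.05, 7 members changed, all lower but Acp5, against 1867 lower and 1787 higher of all 11243 genes. The share of members that fell was then near that of all genes. The ranges were separate for 9 members with LPS lower (24.1% of all genes) and 3 with LPS higher (22.1%). The count of 16 changed members became 7 without experiment 1 and 8 without experiment 3, and 5 were called in the full fit and in all 3 fits that left out an experiment (Sgsh, Hyal1, Dnase2a, Manba and Gnptab). With library totals it was 28 lower and 1 higher, against 54.3% and 13.7% of all genes.

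Lipa, Ids, Asah1, Psap, Aga and Hgsnat passed the test with LPS in total mRNA only, and Pla2g15, a lysosomal phospholipase gene, in polysome-associated mRNA only. For example, Lipa changed by −0.34 ± 0.16 in total (edgeR adjusted p = 0.1) and by −0.16 ± 0.20 in polysome-associated mRNA (edgeR adjusted p = 0.598). With the experiment as a replicate block, Hgsnat and Ids also passed in polysome-associated mRNA, and Arsa, Ppt1 and Acp2 passed there but not in total mRNA. Such pairs were tested directly as translation efficiency, that is, by how far the fold changes of polysome-associated and total mRNA differ, and none of the 35 members passed that test, nor did any other gene (0% of all genes).

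**Figure D2:**
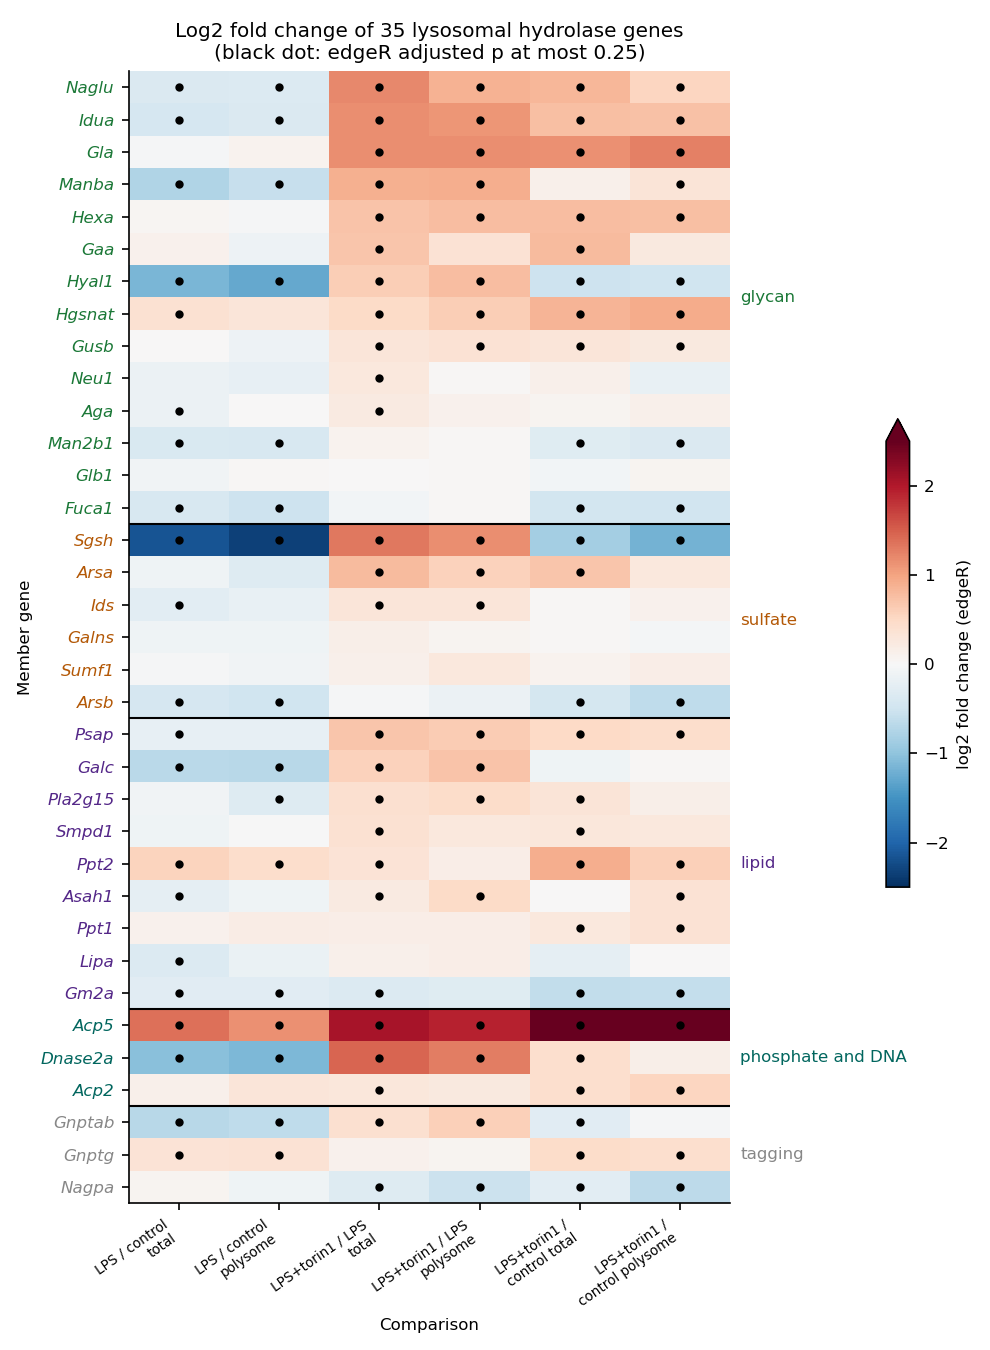
Log2 fold change (edgeR) of the 35 members in 6 comparisons, blue for lower and red for higher, with members in rows by group. Within a group they are ordered by the change with LPS and torin1 against LPS in total mRNA. Black dots mark an edgeR adjusted p of at most 0.25; Sgsh is the darkest blue with LPS, at −2.15 in total mRNA, and Acp5 exceeds the colour scale in LPS with torin1 against control, at 3.44.

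The second comparison asked what inhibition of mTOR did to the members in LPS-treated cells. The LPS libraries enter both this comparison and the first, so a low LPS library lowers one and raises the other, and the values are given side by side without a test between them. In total mRNA, 24 members rose and 2 fell with torin1 and LPS relative to LPS, against 27.3% and 26.4% of all genes (53.7% either way). The share that rose exceeded the background and the share that fell lay below it, with a median of 0.34 for the members and 0.001 for all genes on the log2 scale. Libraries of the 2 treatments were separate with torin1 higher for 22 members, against 22.2% of all genes, and with torin1 lower for 0 members, against 19.8%. Without experiment 3 the count of 26 changed members dropped to 15, all of them higher, and 15 were called in the full fit and in all 3 fits that left out an experiment. At an adjusted p of at most 0.05, 14 members were higher and 0 lower, against 1759 and 1520 of all 11243 genes.

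Acp5 had the largest rise. It went from 2.46, 3.28 and 4.24 CPM with LPS to 16.6, 7.78 and 17.3 CPM with LPS and torin1 in total mRNA, and experiment 2 was the lowest of the torin1 libraries. The log2 fold change was 2.06 ± 0.34 (edgeR adjusted p = 0.00203). In polysome-associated mRNA Acp5 went from 4.30, 4.33 and 5.26 CPM to 22.2, 10.3 and 19.3 CPM, a log2 fold change of 1.92 ± 0.37 (edgeR adjusted p = 0.00884). Of the 4 osteoclast markers in the table, 2 had higher and 2 had lower means with LPS and torin1 than with LPS in total mRNA. Ctsk, an osteoclast protease, was at 5.24 ± 0.835 and then 20.9 ± 6.17 CPM, and Dcstamp at 53.1 ± 17.3 and then 136.6 ± 37.9 CPM (SD, n = 3). Mmp9 was at 28.1 ± 14.7 and then 20.3 ± 6.39 CPM, and Ocstamp at 3.99 ± 1.48 and then 2.15 ± 0.696 CPM (SD, n = 3). Their part in the rise of Acp5 was not tested.

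Dnase2a rose to 175, 146 and 182 CPM in total mRNA, which was above every LPS library and also above every control library. Its log2 fold change relative to LPS was 1.46 ± 0.11, with an edgeR adjusted p of 5.27e-05. In polysome-associated mRNA it stood at 208, 199 and 209 CPM, and the log2 fold change was 1.27 ± 0.13 (edgeR adjusted p = 0.000659). Sgsh rose to 10.5, 9.53 and 15.1 CPM, between the LPS and the control libraries, with a log2 fold change of 1.31 ± 0.26 (edgeR adjusted p = 0.00456). In polysome-associated mRNA Sgsh stood at 11.1, 13.8 and 14.1 CPM and its log2 fold change was 1.17 ± 0.28 (edgeR adjusted p = 0.0211).

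All 6 members that act on heparan sulfate rose with torin1 relative to LPS, in both RNA types. Of all genes, 27.3% rose in total and 20.3% in polysome-associated mRNA. The median log2 fold change of the 6 was 0.82 in total and 0.74 in polysome-associated mRNA. The N-acetylglucosaminidase gene Naglu held 20.1, 38.6 and 30.2 CPM with LPS and 56.8, 72.2 and 75.6 CPM with LPS and torin1 in total mRNA, a log2 fold change of 1.2 ± 0.21 (edgeR adjusted p = 0.00235). The iduronidase gene Idua held 8.23, 8.51 and 8.07 CPM and then 18.7, 17.5 and 19.6 CPM, a log2 fold change of 1.17 ± 0.12 (edgeR adjusted p = 0.000198). Both genes were separate between the treatments, and the replicates of Idua were tight. On polysomes the changes in log2 were 0.86 ± 0.21 for Naglu and 1.10 ± 0.18 for Idua, with edgeR adjusted p of 0.0215 and 0.00392. The other members of the list were Sgsh (above), Hgsnat at 0.47 ± 0.20, and Ids and Gusb, both at 0.30 ± 0.11 in total mRNA. Without experiment 3 the calls of Hgsnat in total mRNA, and of Hgsnat, Ids and Gusb in polysome-associated mRNA, were lost, as were those of Ids and Gusb in polysome-associated mRNA without experiment 1. Idua shares 265 exonic bases with Dgkq and Slc26a1 on the opposite strand, and Slc26a1 changed by 1.66 ± 0.25 from a level of 0.925 ± 0.151 CPM (SD, n = 3) with LPS.

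Of the 10 members that act on sphingolipids, 8 rose and 1 fell in total mRNA, and 6 rose and 0 fell in polysome-associated mRNA, against 27.3% of all genes higher in total and 20.3% in polysome-associated mRNA. Without experiment 3 the counts were 5 higher in total and 2 in polysome-associated mRNA, and without experiment 1 they were 7 and 3. Gla, the α-galactosidase gene of globoside breakdown, had the largest rise among them. It held 63.4, 58.2 and 35.9 CPM with LPS and 122.7, 104.5 and 125.9 CPM with LPS and torin1 in total mRNA, a log2 fold change of 1.17 ± 0.25 (edgeR adjusted p = 0.00733), and 1.16 ± 0.24 in polysome-associated mRNA (edgeR adjusted p = 0.0106). Arsa, the sulfatase gene of sulfatide breakdown, changed by 0.80 ± 0.17, Hexa by 0.72 ± 0.12 and Psap by 0.70 ± 0.12 in total mRNA, with edgeR adjusted p of 0.00593, 0.00168 and 0.0019. Psap, the most abundant member, went from 525, 675 and 620.3 CPM to 1010, 903 and 1044 CPM. The member that fell was Gm2a, the activator that presents GM2 ganglioside to hexosaminidase. It held 33.8, 38.8 and 50.4 CPM with LPS and 32.7, 29 and 35.8 CPM with LPS and torin1, so that the treatments overlapped, and its log2 fold change was −0.34 ± 0.15 (edgeR adjusted p = 0.129). That call was lost without experiment 2 or 3. Hexa and Gm2a, whose products act together on GM2, thus changed in opposite directions in total mRNA.

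Among the 7 members that act on glycoproteins, 4 rose in total and 2 in polysome-associated mRNA, against 27.3% and 20.3% of all genes. The count in polysome-associated mRNA is thus near the share of all genes. Both counts were 2 without experiment 3. Manba rose by 0.89 ± 0.12 and 0.91 ± 0.17 in the 2 RNA types (edgeR adjusted p = 0.000715 and 0.0082). The α-fucosidase gene Fuca1 and the α-mannosidase gene Man2b1, which had fallen with LPS, did not pass the test, with log2 fold changes of −0.06 ± 0.14 and 0.08 ± 0.17 in total mRNA. They stood at 56.7 ± 7.09 and 98.1 ± 17.5 CPM with LPS and torin1, and at 77.6 ± 7.33 and 121 ± 21 CPM in control (SD, n = 3).

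The 3 tagging genes moved apart. In total mRNA Gnptab rose by 0.41 ± 0.13 (edgeR adjusted p = 0.042), Gnptg changed by 0.11 ± 0.13 (edgeR adjusted p = 0.559), and Nagpa, the gene of the uncovering enzyme that completes the tag, fell by 0.33 on the log2 scale (SE 0.14, edgeR adjusted p = 0.102), in 2 of 3 experiments, a call lost without experiment 2 or 3. In polysome-associated mRNA Nagpa lay between 125.7 and 145.8 CPM in the 3 LPS libraries and between 81.6 and 107.5 CPM in those of LPS with torin1. These libraries were separate, and the log2 fold change was −0.54 ± 0.20 (edgeR adjusted p = 0.106), the only fall of a member in this comparison. The call was lost without experiment 1 or 3.

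In polysome-associated mRNA, 18 members rose and 1 fell with torin1 relative to LPS, against 20.3% and 18.2% of all genes (38.4% either way), and the median was 0.36 for the members and 0 for all genes. Libraries were separate with torin1 higher for 15 members, against 15.8% of all genes, and with torin1 lower for 1, against 16.8%. The count of 19 became 10 without experiment 1 and 8 without experiment 3. Acp5, Dnase2a, Sgsh, Gla, Idua, Manba, Naglu and Hexa were called in the full fit and in all 3 fits that left out an experiment. Aga, Neu1, Acp2, Ppt2, Smpd1, Gaa and Gm2a passed the test in total mRNA only. With the experiment as a replicate block, Gaa, Gm2a and Acp2 also passed in polysome-associated mRNA, Sumf1 passed there but not in total mRNA, and Ppt1 passed in total mRNA only. Gaa, the acid glucosidase gene of glycogen breakdown, changed by 0.69 ± 0.24 in total (edgeR adjusted p = 0.0514) and by 0.37 ± 0.20 in polysome-associated mRNA (edgeR adjusted p = 0.251), and its LPS libraries of total mRNA ranged from 33.2 to 75.3 CPM.

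**Figure D3:**
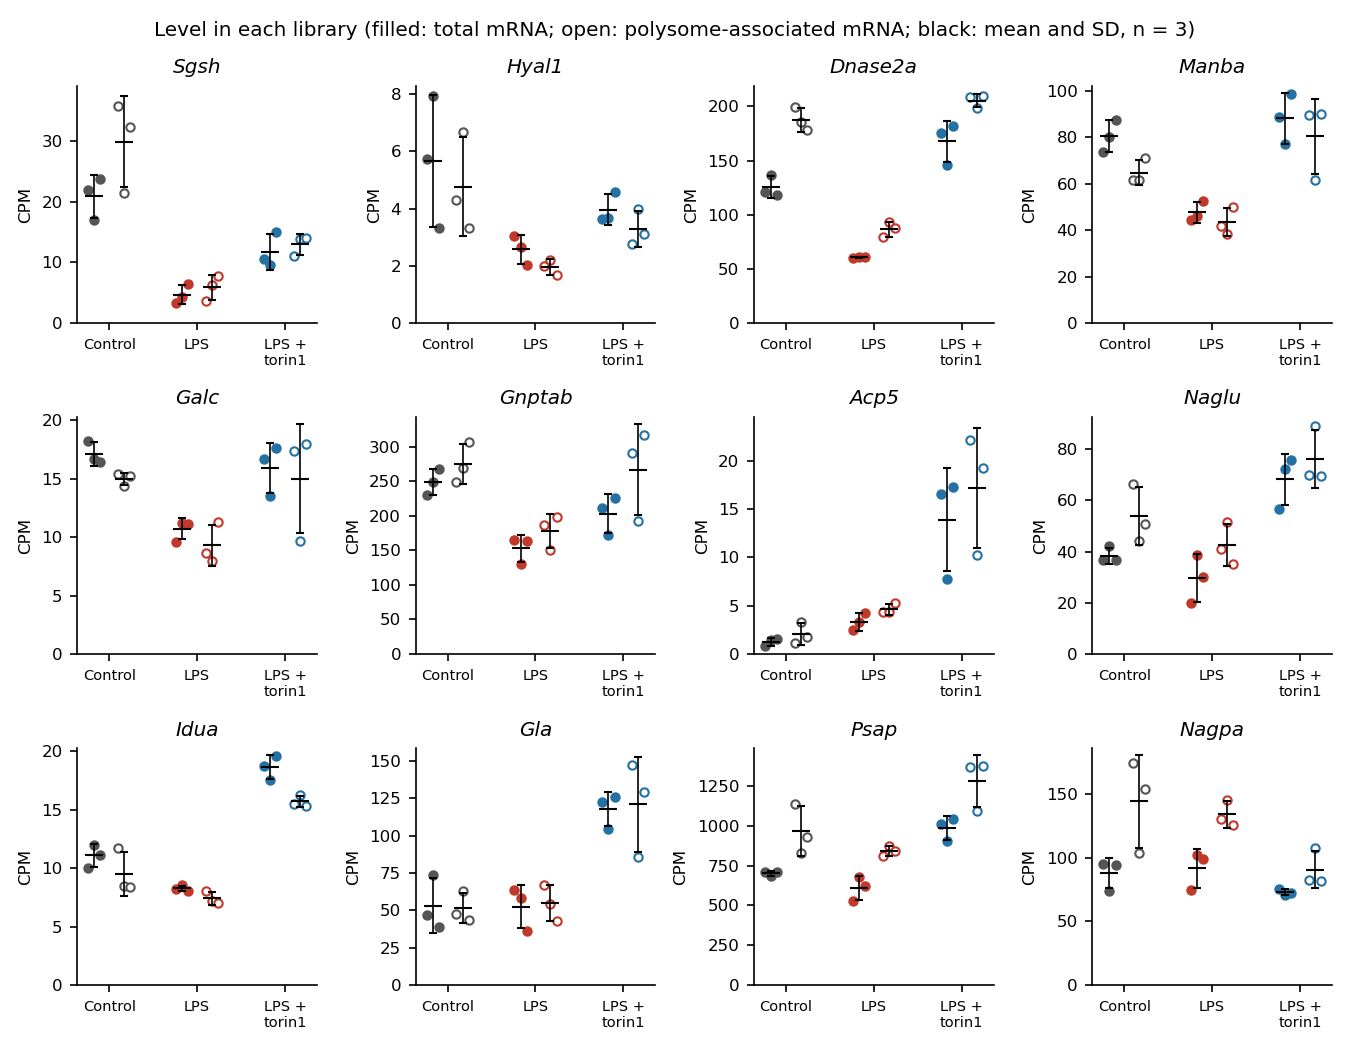
Level in CPM of 12 members in each library, by treatment, with total mRNA as filled and polysome-associated mRNA as open circles, and the mean and SD of 3 experiments in black; each vertical axis starts at 0. Dnase2a with LPS sits between 60.2 and 61.1 CPM in total mRNA, apart from 118.5 to 136.8 CPM in control and 146 to 182 CPM with LPS and torin1.

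The glycan, sulfate and lipid groups were compared by the median change of their members within each experiment, without a test, since the members were picked with results of these data known. In total mRNA with LPS the mean of these medians was −0.23 ± 0.10 for the glycan genes, −0.27 ± 0.07 for the sulfate genes and −0.14 ± 0.10 for the lipid genes (SD, n = 3 experiments), and these ranges overlapped. Beside them the median of all genes was −0.023 ± 0.008. In polysome-associated mRNA the values were −0.26 ± 0.27, −0.31 ± 0.20 and −0.12 ± 0.19, in the same order, with a spread between experiments as large as most of the means. The sulfate median gives little weight to Sgsh, and the mean over the 6 sulfate genes was −0.53 in total and −0.60 in polysome-associated mRNA.

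The glycan group includes Gla and Hexa, which also act on sphingolipids. With torin1 and LPS relative to LPS, the glycan genes had the largest median in both RNA types. In total mRNA it was 0.51 ± 0.18 for the glycan, 0.24 ± 0.04 for the sulfate and 0.25 ± 0.14 for the lipid genes, and in polysome-associated mRNA 0.48 ± 0.11, 0.25 ± 0.02 and 0.26 ± 0.11. The mean over the 6 sulfate genes was larger than their median, at 0.46 in total and 0.36 in polysome-associated mRNA. The size of the gap between glycan and sulfate genes thus depends on the use of the median, and the mean over the glycan genes is not given here. The glycan medians of all 3 experiments lay above the sulfate medians in both RNA types, and in total mRNA they overlapped with the lipid medians. By count, 11 of 14 glycan genes, 3 of 6 sulfate genes and 6 of 9 lipid genes rose in total mRNA, and 8, 3 and 4 in polysome-associated mRNA, against 27.3% and 20.3% of all genes. Without experiment 3 these counts were 7, 3 and 2 in total and 5, 1 and 0 in polysome-associated mRNA, and without experiment 1 they were 10, 3 and 5 in total and 6, 1 and 1 in polysome-associated mRNA. The sulfate genes that did not pass the test were Galns, Arsb and Sumf1, the gene of the enzyme that activates all sulfatases, at 0.14 ± 0.15, −0.02 ± 0.23 and 0.12 ± 0.10 in total mRNA. The lipid genes that did not were Lipa at 0.12 ± 0.16 and Ppt1 at 0.17 ± 0.15.

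**Figure D4:**
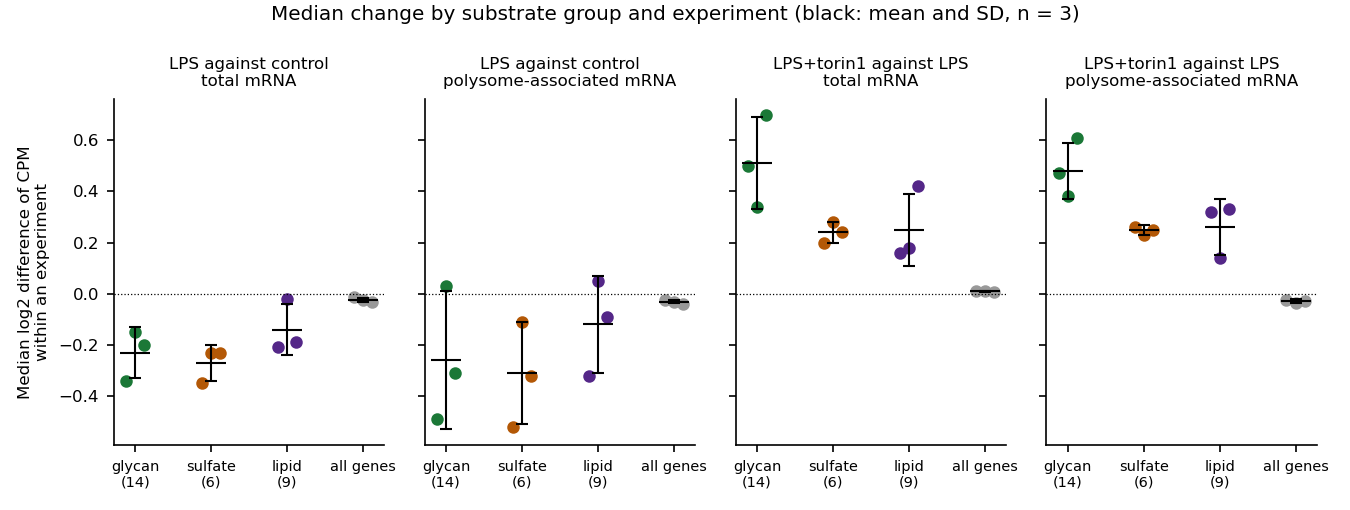
Median log2 difference of CPM over the 14 glycan, 6 sulfate and 9 lipid genes, and over all genes of the table, within each of 3 experiments (points), with the mean and SD in black, for LPS against control and for LPS with torin1 against LPS in both RNA types. The glycan medians with torin1 in total mRNA lie between 0.34 and 0.70, and the sulfate medians between 0.20 and 0.28.

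The third comparison set LPS with torin1 against control, and it shares libraries with both others. In total mRNA 17 members were higher and 8 lower than in control, against 33.1% and 33.6% of all genes (66.7% either way), and in polysome-associated mRNA 14 were higher and 7 lower, against 28.5% and 29.7% (58.2% either way). With library totals the splits were 10 higher and 16 lower in total mRNA and 6 higher and 11 lower in polysome-associated mRNA, which reverses the balance in both. Over all genes they were 19.7% higher and 55.0% lower in total mRNA and 17.9% higher and 48.3% lower in polysome-associated mRNA. The median of all genes was then −0.301 and −0.303. Without experiment 3, 12 members were called in polysome-associated mRNA. Acp5 was 10.8-fold higher in total mRNA, a log2 fold change of 3.44 ± 0.37 (edgeR adjusted p = 4.05e-05), and 3.06 ± 0.39 in polysome-associated mRNA, where it was 3.81 without experiment 2. Gla at 1.14 ± 0.25, Ppt2 at 0.91 ± 0.14, Hgsnat at 0.84 ± 0.20, Naglu at 0.83 ± 0.20, Gaa at 0.80 ± 0.24, Hexa at 0.77 ± 0.12 and Idua at 0.75 ± 0.12 were also above control in total mRNA. Sgsh remained below control, at −0.84 ± 0.25 in total (edgeR adjusted p = 0.017) and −1.18 ± 0.27 in polysome-associated mRNA (edgeR adjusted p = 0.00699). Gm2a was lower by similar amounts in every experiment of total mRNA (−0.65, −0.61 and −0.61), and its log2 fold change was −0.62 ± 0.15 (edgeR adjusted p = 0.00722). Dnase2a, Manba and Galc, which had fallen with LPS, stood at 0.42 ± 0.11, 0.13 ± 0.12 and −0.10 ± 0.13 relative to control.

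In the model of all 18 libraries, with a fold of at least 1.2 required for the interaction term, translation efficiency was tested, and no member passed for LPS against control or for torin1 with LPS against LPS. At an unadjusted p under 0.05 the count of members was 0 in both, by edgeR. Over all genes edgeR called 0% in both comparisons, with 44 and 110 of 11243 genes at an unadjusted p under 0.05. Both are fewer than that threshold passes by chance, so this fit could hardly call a member and its outcome is no evidence of equal change. The study, using anota2seq, reported a subset of mRNAs with changed translation efficiency. DESeq2's Wald test called 1 and 7 genes, and the analysis of partial variance 10 and 21 genes, among them 0 members in both cases. With LPS the interaction ran from −0.24 ± 0.33 for Gaa to 0.18 ± 0.27 for Lipa on the log2 scale, and with torin1 from −0.36 ± 0.30 for Naglu to 0.22 ± 0.19 for Asah1. In the single experiments Naglu had −0.73, −0.11 and −0.35 with torin1, so that its polysome-associated mRNA rose less than its total mRNA each time, by amounts that differed widely. For Sgsh, whose mRNA changed most with LPS, the log2 fold changes were −2.15 in total and −2.34 in polysome-associated mRNA.

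Polysome-associated mRNA was also compared with total mRNA of the same treatment, on the CPM scale, where it measures a gene's place relative to other genes and not the amount of polysomes. In control cells 24 members were higher and 5 lower in the polysome fraction, against 36.3% and 33.2% of all genes (69.6% either way), with a median of 0.48 for the members and 0.028 for all genes on the log2 scale. The acid sphingomyelinase gene Smpd1 was the most enriched, with 20.5, 20.3 and 17.8 CPM in total and 43.1, 39.4 and 39.5 CPM in polysome-associated mRNA, a log2 fold of 1.06 ± 0.19 (edgeR adjusted p = 0.000445). The sialidase gene Neu1 followed at 0.91 ± 0.18, and Gusb and Gnptg both at 0.82. At the other end stood Ppt1, a palmitoyl thioesterase gene, with 187, 213 and 177 CPM in total and 123.8, 155.6 and 147 CPM in polysome-associated mRNA, a log2 fold of −0.44 ± 0.15 (edgeR adjusted p = 0.0221). Manba, Ids, Asah1 and Idua were lower as well, at −0.31, −0.30, −0.27 and −0.22. The paralogues Ppt1 and Ppt2 thus lay on opposite sides, with Ppt2 at 0.80 ± 0.15 (edgeR adjusted p = 0.000671).

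In LPS-treated cells 21 members were higher and 2 lower in the polysome fraction (34.1% and 31.1% of all genes, 65.2% either way), and with LPS and torin1 19 were higher and 3 lower (27.8% each way, 55.6% in all). The medians were 0.45 and 0.31. Smpd1 remained at the top in both, at 1.16 ± 0.19 and 1.02 ± 0.19, and Ppt1 was lower in both, at −0.36 ± 0.15 and −0.38 ± 0.15. By group in control cells, 10 of 14 glycan, 5 of 6 sulfate and 5 of 9 lipid genes were higher in the polysome fraction, against 36.3% of all genes. The medians were 0.47, 0.54 and 0.40. Without experiment 1, 18 of the 35 members were higher and 3 lower in control cells, against 3246 and 2916 of all 11243 genes.

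**Figure D5:**
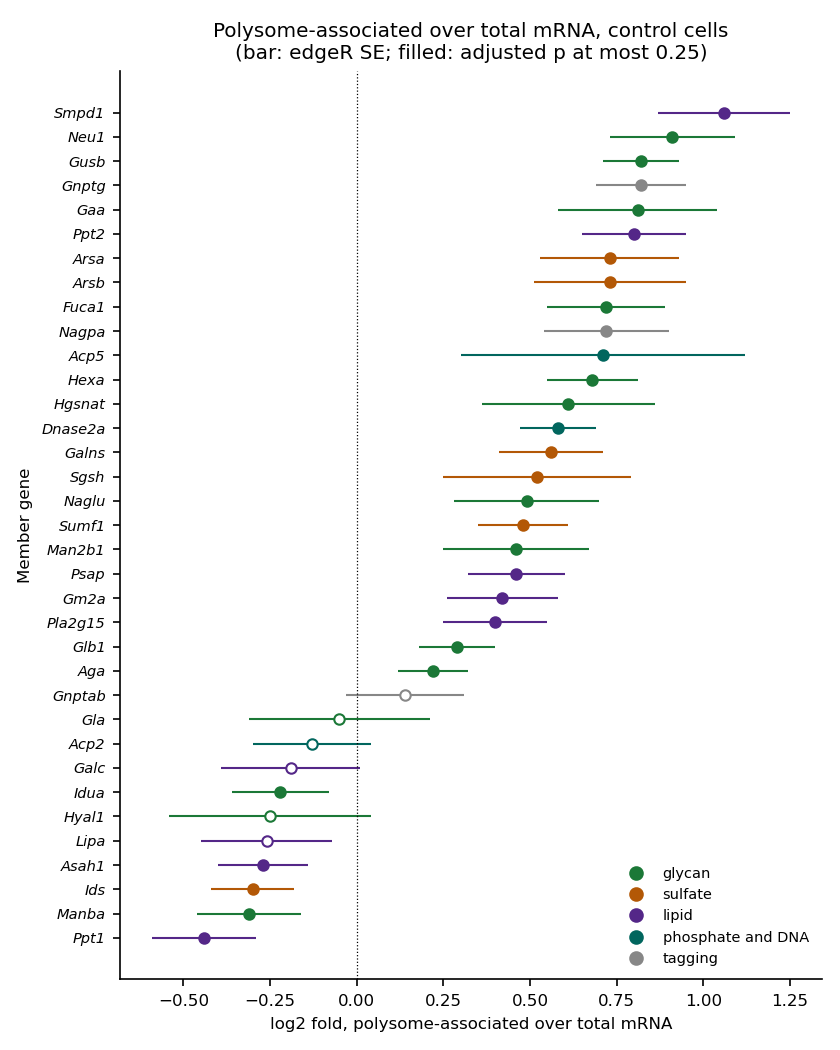
Log2 fold of polysome-associated over total mRNA in control cells for each of the 35 members, with the edgeR standard error as a bar, filled where the adjusted p is at most 0.25 and coloured by group. Smpd1 is at the top at 1.06 and Ppt1 at the bottom at −0.44.

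The other 77 genes of the lysosome pathway list used by the study are given for comparison. Of these 77, 39 rose and 14 fell in total mRNA with LPS, with a median of 0.20, against 32.2% and 34.3% of all genes. In polysome-associated mRNA 29 rose and 10 fell, with a median of 0.17, against 26.4% and 28.7%. With torin1 relative to LPS, 37 rose and 15 fell in total mRNA, with a median of 0.26, against 27.3% and 26.4% of all genes. In polysome-associated mRNA 31 rose and 11 fell, with a median of 0.21, against 20.3% and 18.2%. The counts are a description of lists and no test of their difference was made. Among these 77, 7 genes are receptors and sorting factors that act on mannose-6-phosphate tagged or other lysosomal cargo. With LPS in total mRNA 3 of these rose and 4 fell, against 32.2% and 34.3% of all genes. M6pr, the cation-dependent mannose-6-phosphate receptor, rose by 0.74 ± 0.11 (edgeR adjusted p = 0.000457) with LPS and changed by −0.46 ± 0.11 (edgeR adjusted p = 0.0137) with torin1, which is opposite to Gnptab in both comparisons. Gga2, an adaptor of receptor sorting, changed by −1.30 ± 0.15 and 0.84 ± 0.15 (edgeR adjusted p = 6.81e-05 and 0.00294), as Gnptab did in direction.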

How the data were processed

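Total and heavy-polysome RNA of RAW264.7 cells was measured in 18 libraries (3 treatments, 3 experiments, 2 RNA types), grouped by the treatment, RNA source and replicate labels. The authors removed ribosomal RNA, made stranded libraries, used Hisat2 for alignment of read pairs on GRCm38 and featureCounts for gene counts, keeping protein-coding genes without a 0. These raw counts, which the authors deposited without normalization, cover 11243 genes and have a lowest value of 1. Versions of the aligner and annotation, and the strand setting, are not given in the sources used here.

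Differences were tested by edgeR 4.0.16 under R 4.3.3 (quasi-likelihood, TMM), using the 9 libraries of an RNA type in one model, with Benjamini-Hochberg adjustment over all genes. The threshold of 0.25 and the fold of 1.2 for translation efficiency are those of the study's methods. Translation efficiency was the interaction in one model of the 18 libraries. Alternatives were DESeq2 1.42.0, an analysis of partial variance with limma 3.58.1, since anota2seq was not installed, and those in the closing section. The smallest chi-squared per degree of freedom between replicates was 26.3, so no library was a duplicate. The fits were tested on simulated data.

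The members and lists were chosen with earlier results of these data known. Named were the 5 largest rises and falls per comparison that went the same way in all 3 experiments, members whose call differed between RNA types, the ends of the abundance range, and others chosen after their values were seen. Same-experiment libraries of total mRNA deviated together (correlations of 0.149 to 0.426). In polysome-associated mRNA these correlations ran from −0.092 to 0.74, with a mean of 0.29, against a mean of −0.143 between experiments. Total and polysome-associated mRNA came from the same lysate per the study's methods. The main fits had no block for experiment or lysate, and fits with a block are in the closing section. Exon lengths, gene positions and overlaps came from GENCODE M21, and 15 of 35 members share exonic bases with another gene on either strand. Depth bears on counting error only, and the precision of each difference comes from 3 experiments. The SE of a log2 fold change includes the spread between replicates, and each SD is over 3 libraries or experiments.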

Additional observations from a re-analysis of the deposited data

How the results depend on the processing

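Of 3640 values of single members under an alternative, 3363 kept their direction and their side of the threshold or passed it in neither fit (189 of these changed sign and are given no direction), 165 lost the call, 96 gained it and 16 reversed. With an adjusted p of at most 0.05, 11 members changed with LPS and 14 with torin1 for total mRNA, against 5132 and 3279 of all 11243 genes. For polysome-associated mRNA the counts were 7 and 9, against 3654 and 1557 of all genes. The share of members with LPS lay below that of all genes in both RNA types. There were 12 for polysome-associated mRNA of LPS with torin1 against control (3950 of all genes). For polysome-associated against total mRNA in LPS with torin1 there were 12 (3481 of all genes). Leaving out 1 experiment gave 15 to 23 members with torin1 in total mRNA, 7 to 21 with LPS and 8 to 20 with torin1 in polysome-associated mRNA, and 12 to 21 for polysome-associated mRNA of LPS with torin1 against control.

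Library totals in place of TMM, chosen after seeing the data, moved the median of all genes by construction. They gave 29 changed members with LPS in polysome-associated mRNA, against 7640 of all 11243 genes. The LPS medians of the glycan, sulfate and lipid genes became −0.60, −0.64 and −0.51 in total and −0.61, −0.67 and −0.47 in polysome-associated mRNA, and the torin1 medians of the sulfate genes 0.31 and 0.34. The mean in place of the median gave −0.53, −0.60, 0.46 and 0.36 for the sulfate genes, for LPS in total and polysome-associated mRNA and torin1 in both. The 16 reversals all came with library totals. For LPS in total mRNA they were Hexa −0.32, Gusb −0.36, Ppt1 −0.26, Acp2 −0.24, Gnptg −0.02 and Nagpa −0.30, and in polysome-associated mRNA Glb1 −0.33 and Aga −0.34. For LPS with torin1 against control in total mRNA they were Aga −0.23, Galns −0.27, Ids −0.27, Sumf1 −0.20, Smpd1 −0.02 and Ppt1 −0.03, and in polysome-associated mRNA Glb1 −0.23 and Gusb −0.05.

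With the experiment as a replicate block, the counts were 21 and 27 in total mRNA for LPS and torin1, against 8223 and 7196 of all 11243 genes. In polysome-associated mRNA they were 21 and 23, against 7062 and 5587. In the tests over both RNA types the block was the lysate, which pairs total and polysome-associated mRNA. For polysome-associated against total mRNA in control, LPS, and LPS with torin1 the counts were then 34, 30 and 27, against 8991, 8647 and 7926 of all genes. No member lost a call with the experiment block in the comparisons of total mRNA. With the lysate block none passed for translation efficiency, where 0 and 25 of all genes passed with LPS and with torin1. The lowest member count of 26 limits Acp5 most.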
